A study of Rattus norvegicus with 5 samples.

Results

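Gene expression in rat lung 24 to 40 h after the urban particle sample EHC-93 had been instilled was read from 1 array and set against a saline sham array and an untreated control array. All 8740 probe sets of the table that are not array controls entered, 2104 with names that start with rc_AA and 6636 with other names, and both kinds were counted apart throughout. A probe set is the group of short probes on the array that reads one transcript, and one whose name starts with rc_AA was designed from an expressed sequence tag, a short read of a cDNA. Of the 8740, 5935 lay above a floor for low intensity on at least 1 of the 3 arrays, and 94 of these were at least 2-fold away from both controls in late lung, 35 higher and 59 lower.

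The series holds 5 one-colour arrays of lung RNA, 1 per group, each hybridised with a pool of equal RNA amounts. The late pool joined RNA taken 24, 32 and 40 h after intratracheal instillation of EHC-93. The sham pool joined RNA taken 2, 15 and 24 h after instillation of saline, and the untreated pool came from 3 rats that were not instilled. An early pool (2, 4 and 6 h after EHC-93) and an intermediate pool (15, 18 and 21 h after EHC-93) are given beside the late values only. The sources used here do not give strain, sex, age, dust dose or the number of rats in the instilled pools. The late and sham pools share only the 24 h time, so dust and the hours beyond 24 h cannot be told apart. With 1 array per group no difference has a replicate error, no test was possible, and the number of arrays limits the precision. "Higher" and "lower" below name a fold between single arrays.

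Inhaled particles are taken up by alveolar macrophages, which release cytokines and chemokines and call neutrophils and then monocytes into the airspaces. In the following days the lung is known for clearance of debris by macrophages with active lysosomes and for division of epithelial and other cells that replace damaged ones. Secreted acute phase proteins, made mainly in the liver but also in the lung, accompany such inflammation.

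The late array was close to both controls in its overall signal. Its median deposited intensity was 272, against 301 in sham lung and 289 in untreated lung, and scaling to equal medians used factors of 1.03, 0.931 and 0.970 in the same order. The beta-actin 5′ probes, which dim where RNA or its copy is incomplete, had 19.6% of the 3′ signal in late lung, 14.7% in sham lung and 24.4% in untreated lung. The same share for GAPDH was 38.1% in late lung, 25.4% in sham lung and 39.1% in untreated lung. The late array lay between the controls for both transcripts. The early array, at 43.1% for beta-actin and 67.2% for GAPDH, lay above both controls. The intermediate array, at 9.07% and 23.6%, lay below both. The part of this in the early and intermediate values given below was not tested. Defining lung transcripts were bright on all 3 arrays. Sftpc, the surfactant protein C gene of alveolar type 2 cells, had a scaled intensity of 67231 in late lung, 55179 in sham lung and 53586 in untreated lung. Ager, the alveolar type 1 marker, read 26822 in late lung, 28269 in sham lung and 25949 in untreated lung. The club cell secretoglobin Scgb1a1 read 25300, 23792 and 25506 in that order. Elsewhere in the club cell list Aldh1a1 read 18894, 16481 and 19846, Cyp4b1 3805, 4139 and 5106, and Cyp2f4 818, 940 and 2643.

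Higher and lower probe sets were divided unevenly between the name classes. Of the 4260 probe sets with other names above the floor, 28 were higher (0.657%) and 20 lower (0.469%) than both controls. Of the 1675 rc_AA probe sets above the floor, 7 were higher (0.418%) and 39 lower (2.33%). Over all 5935 the shares were 0.59% higher and 0.994% lower. The other names include 809 above the floor that start with rc_AI, of which 6 were higher and 2 lower. They also include 84 that start with rc_H, of which 0 were higher and 0 lower. A lower call needs both controls at least 2-fold above the floor, which held for 2529 other and 1184 rc_AA probe sets, and of those 0.791% and 3.29% were called lower. Against a single control the ratio between the lower shares of the classes was smaller: 2.04% of other and 3.72% of rc_AA probe sets (2.52% of all) were at least 2-fold below sham, and 2.09% and 2.26% (2.13% of all) were above it. Against untreated lung 1.99% and 5.27% (2.93% of all) were lower, and 2.09% and 1.38% (1.88% of all) higher. Sham lung itself was at least 2-fold below untreated lung in 1.95% of other and 2.38% of rc_AA probe sets (2.08% of all), and above it in 2% and 1.28% (1.8% of all). Among the other probe sets, differences from a single control were thus about as many as those between both controls. With intensities left as deposited, the other names gave 22 higher and 35 lower and 23.5% of all calls were higher, against 37.2% after scaling. The medians over all probe sets above the floor were 0.10 for late minus sham and 0.03 for late minus untreated, on the log2 scale.

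**Figure D1:**
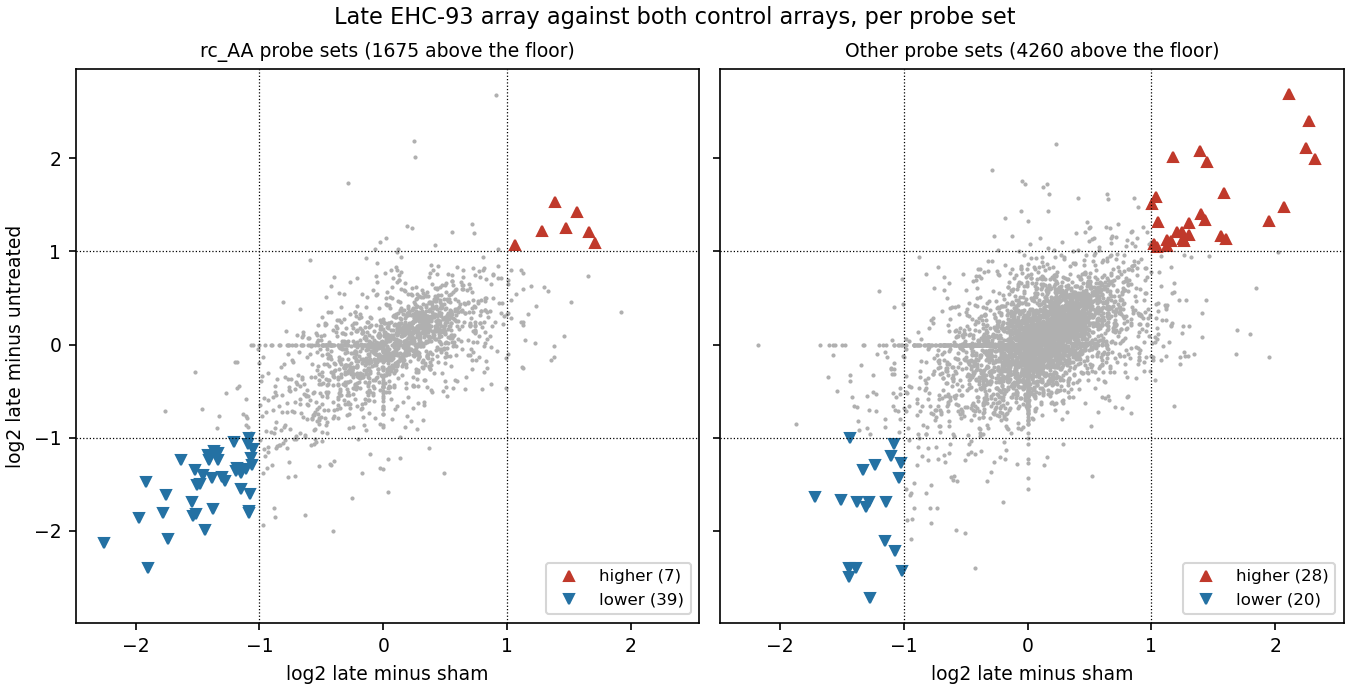
Each point is a probe set above the floor, with its log2 difference of the late from the sham array (horizontal) and from the untreated array (vertical), for rc_AA names (left) and other names (right). Triangles pointing up mark the 7 rc_AA and 28 other probe sets at least 2-fold above both controls, triangles pointing down the 39 rc_AA and 20 other probe sets at least 2-fold below both; dotted lines stand at 2-fold.

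The higher calls among probe sets with other names included several inflammatory mediators. Ccl2, the chemokine that draws monocytes, read 4277 in late lung, against 888 in sham lung and 812 in untreated lung, a fold of 4.82 and 5.27. The early and intermediate arrays had 7097 and 5367 for the same probe set, so the late value was the lowest of the 3 dust arrays and still far above both controls. A second Ccl2 probe set read 1077 in late lung, 409 in sham lung and 254 in untreated lung. Ccl3, a macrophage chemokine, was at 950 in late lung, against 353 in sham lung and 377 in untreated lung, with 2600 and 1258 on the early and intermediate arrays. The interleukin Il1b, a starter of fever and of local inflammation, had 889 in late lung, against 376 in sham lung and 384 in untreated lung. Another Il1b probe set, at 2057 in late lung, 1131 in sham lung and 692 in untreated lung, was not called. For Ccl2, Ccl3 and Il1b the order over the dust arrays was the same: early, intermediate, late from high to low in the called probe set with the larger difference.

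Nos2, the inducible nitric oxide synthase, read 559 in late lung, against 186 in sham lung and 181 in untreated lung, 3.01-fold and 3.09-fold. The early and intermediate arrays had 732 and 682. No further Nos2 probe set lay above both controls, so the difference rests on 1 probe set. Cxcl10, a chemokine of the interferon response that draws T cells, read 510 in late lung, against 173 in sham lung and 227 in untreated lung. Its early and intermediate values were 334 and 332, so the late array was its highest. Orm1, the acute phase protein alpha-1-acid glycoprotein, was at 1201 in late lung, against 277 in sham lung and 187 in untreated lung, 4.33-fold and 6.43-fold. Orm1 had 499 on the early and 2399 on the intermediate array, its highest value.

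The promoters of Cxcl10 and Orm1 are shown because textbook motifs of inflammatory transcription lie close to both gene starts. The 250 bases before each start come from RefSeq, assembly GRCr8: Cxcl10 at chr14:15988816-15989065 on the plus strand and Orm1 at chr5:81788259-81788508 on the plus strand. Capitals mark matches, on either strand, to the NF-kB letters (GGG, any 3 bases, TTCC), the C/EBP letters TTGCNNAA and the interferon response letters (GAAA, any 2 bases, GAAA).
Cxcl10: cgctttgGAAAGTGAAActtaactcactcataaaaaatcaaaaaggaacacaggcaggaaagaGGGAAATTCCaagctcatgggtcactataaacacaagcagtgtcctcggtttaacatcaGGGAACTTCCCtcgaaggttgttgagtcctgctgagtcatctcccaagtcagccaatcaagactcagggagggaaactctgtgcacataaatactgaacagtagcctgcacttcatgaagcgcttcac
Orm1: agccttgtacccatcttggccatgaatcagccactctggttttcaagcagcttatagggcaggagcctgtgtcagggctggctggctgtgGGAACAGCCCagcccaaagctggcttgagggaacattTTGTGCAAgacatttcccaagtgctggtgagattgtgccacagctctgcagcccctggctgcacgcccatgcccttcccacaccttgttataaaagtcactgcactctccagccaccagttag
Cxcl10 had 3 NF-kB matches, of which 2 overlap each other in the last run of capitals, and 1 interferon response match. Orm1 had 1 NF-kB match and 1 C/EBP match. Over 33469 rat promoters of this length 4.53% held the NF-kB letters, 9.22% the C/EBP letters and 3.41% the interferon response letters. A match describes the letters only and says nothing of binding. Of the 27 genes named among the higher probe sets, 20 were in the promoter table.

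Of 36 probe sets (26 genes) of chemokines and cytokines above the floor, 6 were higher and 1 was lower. Over all probe sets above the floor the shares were 0.59% higher and 0.994% lower. The list medians were 0.31 for late minus sham and 0.08 for late minus untreated. The 6 were the pair for Ccl2 and those of Ccl3, Il1b, Cxcl10 and Spp1. The lower one was Il13, a cytokine of type 2 immunity, which was under the floor in late lung, against 465 in sham lung and 347 in untreated lung, at least 2-fold lower than each. Ccl20, at 389 in late lung, 907 in sham lung and 638 in untreated lung, was not called. The neutrophil chemokine Cxcl2 read 180 in late lung and was under the floor in both controls. Its early value was 1416. Cxcl3, a relative of Cxcl2, had 5241 in late lung, 3779 in sham lung and 3704 in untreated lung. The list therefore held members well above both controls next to members at or below them. The cytokine Il33, called lower with an rc_AA name, was not on this list and is described with that class.

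Genes of macrophages and of matrix turnover made up the next group. Mmp12, macrophage elastase, was at 822 in late lung, with sham lung under the floor and 190 in untreated lung, a fold of at least 4.76 and of 4.33. The early and intermediate arrays had 381 and 749 for Mmp12, so its order over the dust arrays ran the other way from that of Ccl2. Spp1, osteopontin, a secreted matrix protein made by activated macrophages, read 1799 in late lung, against 660 in sham lung and 463 in untreated lung. Its early and intermediate values were 613 and 1244. Fcgr2b, the inhibitory receptor for antibody complexes, had 1417 in late lung, against 367 in sham lung and 564 in untreated lung, with 925 and 963 on the early and intermediate arrays. Mmp12, Spp1 and Fcgr2b were each highest in late lung of all 5. Timp1, an inhibitor of matrix metalloproteinases, read 2751 in late lung, against 1222 in sham lung and 679 in untreated lung. Its early and intermediate values, 4050 and 4161, were higher still, and its second probe set, at 2880 in late lung, 1803 in sham lung and 1301 in untreated lung, was not called.

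Mmp12, Spp1 and Fcgr2b were the called members among 26 probe sets (15 genes) of macrophages and monocytes, of which none was lower. Of all probe sets above the floor, 0.59% were higher and 0.994% lower. The list medians were 0.10 for late minus sham and 0.21 for late minus untreated, and its summed intensity was 149382 in late lung, 131719 in sham lung and 121212 in untreated lung. Lyz2, lysozyme, the brightest probe set of that list, read 64169 in late lung, 52966 in sham lung and 48269 in untreated lung, and the scavenger-cell lectin Lgals3 read 10567, 7230 and 5845 in that order. Of 18 macrophage genes on the array, Cd36, Csf1r and Itgam were under the floor on all 3 arrays. Most of the list thus differed little from the controls, and Mmp12, Spp1 and Fcgr2b by at least 2-fold. The part of cell number in these differences was not tested, and in whole lung fewer or more cells of a type and a change of RNA per cell cannot be told apart.

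Genes of lysosomes had medians slightly above those of all probe sets, which were 0.10 and 0.03. Of 35 probe sets of lysosomal proteases and membrane proteins, 26 lay above the mean of both controls, as did 58.0% of all probe sets above the floor, with medians of 0.25 for late minus sham and 0.41 for late minus untreated. The single called member, Ctsk, was higher, as were 0.59% of all probe sets above the floor. It has an rc_AA name and is described with that class. The protease cathepsin B, Ctsb, read 13279 in late lung, 9076 in sham lung and 7648 in untreated lung, and the saposin precursor Psap read 41170, 30584 and 29259 on its brightest probe set.

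Of 5 neutrophil probe sets above the floor, 1 was higher, beside 0.59% of all probe sets above the floor. Padi4, the enzyme that turns arginine into citrulline in granulocyte proteins, read 990 in late lung, against 413 in sham lung and 458 in untreated lung, with 957 and 1432 on the early and intermediate arrays. Lcn2, neutrophil gelatinase-associated lipocalin, also made by lung epithelium, had 38177 in late lung, 20334 in sham lung and 5976 in untreated lung, and missed the call against sham. Its sham value was itself far above the untreated one. S100a9, a calcium-binding protein of neutrophils, had 1841 in late lung, 1339 in sham lung and 980 in untreated lung, and S100a8, its partner, had 787, 816 and 539. The list medians were 0.46 for late minus sham, 0.91 for late minus untreated and 0.45 for sham minus untreated. Its summed intensity, nearly all of it Lcn2, was 41991 in late lung, 23031 in sham lung and 8000 in untreated lung, and Cxcr2 and Mmp8 were under the floor on all 3.

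**Figure D2:**
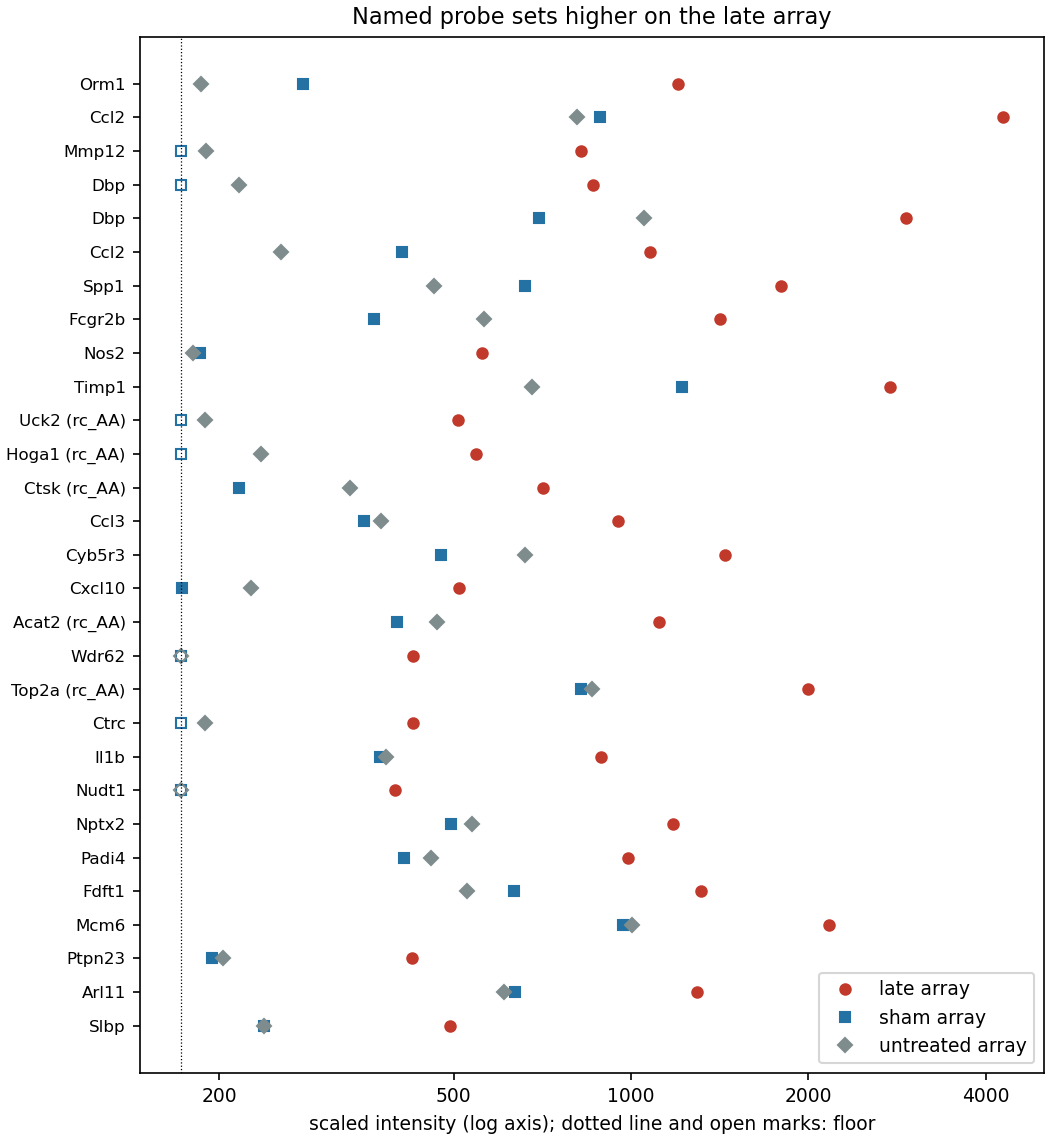
Scaled intensity (log axis) of the named probe sets at least 2-fold above both controls in late lung (circles), with the sham (squares) and untreated (diamonds) arrays, sorted by the difference from the mean of both controls; open marks on the dotted line are values under the floor. The sham and untreated marks lie close together for most genes, with the widest gaps for Timp1 (1222 and 679) and Ccl2 (409 and 254 in its second probe set).

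Genes of cell division formed a further group. Mcm6, a subunit of the helicase that opens DNA for replication, read 2170 in late lung, against 971 in sham lung and 1003 in untreated lung. Its early and intermediate values were 653 and 2716, so it was below both controls early and above them later. The other Mcm6 probe sets were not called: one read 1435 in late lung, 948 in sham lung and 912 in untreated lung, the other 500, 268 and 454. Wdr62, a protein of spindle poles, was at 427 in late lung and under the floor in sham and untreated lung, at least 2.47-fold higher than each. Outside the list, Slbp, which binds the stem-loop of histone mRNAs made during DNA replication, read 493 in late lung, 238 in sham lung and 238 in untreated lung. Nudt1, which clears oxidised nucleotides from the pool for DNA synthesis, was at 398 in late lung and under the floor on both controls, at least 2.31-fold higher. The topoisomerase Top2a, with an rc_AA name, belongs to the same list.

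Over the whole list of cell division and DNA replication, 3 of 52 probe sets (34 genes) were higher and none lower. Over all probe sets these shares were 0.59% and 0.994%. Of the 52, 37 lay above the mean of both controls (58.0% of all probe sets did). The list medians were 0.37 for late minus sham and 0.18 for late minus untreated. Members that missed the 2-fold rule included Cdk1, the kinase that starts mitosis, at 646 in late lung, 360 in sham lung and 278 in untreated lung. Racgap1, needed for the last step of cell separation, read 1230, 648 and 603, and Ccnb1, the mitotic cyclin, read 600, 217 and 309. A second Ccnb1 probe set read 198 in late lung and was under the floor in both controls. Other members did not lie above both controls: Aurkb read 718 in late lung, 901 in sham lung and 1309 in untreated lung. Plk1 read 1249, 1352 and 825, and a Bub1b probe set was under the floor in late and untreated lung, with 249 in sham lung. Pcna, the sliding clamp of DNA replication, had 4519 in late lung, 2978 in sham lung and 3130 in untreated lung, while its second probe set had 1284, 1650 and 1238. The cyclin Ccnd1, which acts before replication, stood at 3827 in late lung, 3626 in sham lung and 4701 in untreated lung on its brightest probe set.

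The promoters of Top2a, Wdr62 and Mcm6 are shown because all 3 hold repeated CCAAT boxes, known from cell cycle genes. The 250 bases before each start are from RefSeq, GRCr8: Top2a at chr10:84473094-84473343 on the minus strand, Wdr62 at chr1:94658022-94658271 on the minus strand and Mcm6 at chr13:42404353-42404602 on the minus strand, each written 5′ to 3′ along its gene. Capitals mark CCAAT on either strand, the E2F letters TTTGGCGC and TTTCGCGC, and the cell cycle homology letters TTTGAA.
Top2a: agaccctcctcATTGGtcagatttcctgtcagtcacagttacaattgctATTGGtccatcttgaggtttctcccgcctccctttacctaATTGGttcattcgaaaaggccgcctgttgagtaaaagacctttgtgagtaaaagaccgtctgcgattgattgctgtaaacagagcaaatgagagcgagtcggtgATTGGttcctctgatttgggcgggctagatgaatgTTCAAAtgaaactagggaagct
Wdr62: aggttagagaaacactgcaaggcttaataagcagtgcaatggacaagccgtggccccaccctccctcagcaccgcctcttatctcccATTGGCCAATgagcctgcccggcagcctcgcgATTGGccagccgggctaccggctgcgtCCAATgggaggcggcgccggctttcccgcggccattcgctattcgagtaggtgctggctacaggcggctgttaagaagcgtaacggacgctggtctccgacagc
Mcm6: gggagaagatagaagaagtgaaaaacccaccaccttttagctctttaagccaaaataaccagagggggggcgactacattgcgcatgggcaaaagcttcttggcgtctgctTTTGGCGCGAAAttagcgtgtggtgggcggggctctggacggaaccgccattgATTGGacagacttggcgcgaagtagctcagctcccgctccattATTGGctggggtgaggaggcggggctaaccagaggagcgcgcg
Top2a and Wdr62 each had 4 CCAAT matches, a number that 0.565% of the 33469 promoters reached, and Mcm6 had 2. At least 1 CCAAT match was in 34.0% of all promoters. Mcm6 also held both E2F forms, overlapping each other, which 0.412% and 0.248% of promoters held, and Top2a held TTTGAA, as did 16.2%. These 3 promoters were chosen after their letters were seen.

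Of sterol and fatty acid synthesis, 1 of 41 probe sets (18 genes) was higher and none lower, beside 0.59% and 0.994% of all. Acat2, called higher with an rc_AA name, was not on this list and is described with that class. Fdft1, squalene synthase, which makes the first committed intermediate of cholesterol, read 1314 in late lung, against 634 in sham lung and 528 in untreated lung. Its early and intermediate values were 996 and 840. The other Fdft1 probe sets differed less, from 0.07 to 0.48 on the log2 scale against the mean of both controls. The list medians were 0.26 for late minus sham and 0.47 for late minus untreated. Idi1, isopentenyl diphosphate isomerase, had 1214 in late lung, 658 in sham lung and 550 in untreated lung, and the sterol oxidase Msmo1 had 3990, 2402 and 2420. In the same list Scd, the stearoyl-CoA desaturase abundant in fat, read 3784 in late lung, 7288 in sham lung and 11588 in untreated lung. Idi1 and Msmo1 thus lay above both controls, without being called, and Scd below both.

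Dbp, a transcription factor whose level follows the daily clock, was higher in both of its probe sets. One read 2933 in late lung, against 699 in sham lung and 1051 in untreated lung, 4.20-fold and 2.79-fold. The other read 864 in late lung, with sham lung under the floor and 216 in untreated lung. The early and intermediate arrays had 752 and 861 in the brighter set, both between the controls. Of 16 probe sets of clock genes and outputs these were the only called ones, while 0.59% of all probe sets were higher. The list medians were 0.06 for late minus sham and 0.27 for late minus untreated. The clock gene Nr1d1 had 1289 in late lung, 1165 in sham lung and 1280 in untreated lung, and Bmal1 was under the floor in late lung, with 222 in sham lung and 270 in untreated lung. The sources used here do not state the hour of day of each collection, and its part in the Dbp values was not tested.

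The remaining higher probe sets with other names fell in no common group. Nptx2, a secreted pentraxin, read 1180 in late lung, 495 in sham lung and 538 in untreated lung, and its other probe set, under the floor in late lung, did not follow. Arl11, a small GTPase, read 1293, 636 and 610. Ptpn23, a phosphatase-like protein of endosomal sorting, read 424, 195 and 203, and Ctrc, chymotrypsin C, read 426 in late lung, under the floor in sham lung and 189 in untreated lung. Cyb5r3, cytochrome b5 reductase, read 1446 in late lung, 477 in sham lung and 661 in untreated lung in the called probe set, while its other 4 probe sets differed from the mean of both controls by -0.23 to -0.05 on the log2 scale. A further 4 probe sets had no single gene symbol and were counted only. Where the genes higher in this class had another probe set above the floor (8 genes, 16 probe sets), 7 of the 16 lay above both controls, and their median difference was 0.14.

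Genes of heart muscle and of fat led the lower probe sets with other names. Of the 20, 8 were on the cardiac muscle or fat lists. Myl4, the atrial myosin light chain, read 843 in late lung, against 2297 in sham lung and 4766 in untreated lung, log2 differences of -1.45 and -2.50. Tnni3, cardiac troponin I, had 2164 in late lung, against 4800 in sham lung and 9340 in untreated lung. Nppa, the atrial natriuretic peptide, read 293 in late lung, against 618 in sham lung and 1365 in untreated lung. For each of these the sham array also lay well below the untreated one. Myl2, the ventricular myosin light chain, read 213 in late lung, 431 in sham lung and 1146 in untreated lung. Further Myl2 probe sets were not called: one read 475, 819 and 1602, another 757, 948 and 844. Myh6, the atrial myosin heavy chain, read 265, 643 and 855, but its probe set is of a type that can read related genes, and the close relative Myh7 may share its signal.

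In rats, heart muscle cells extend from the left atrium into the walls of the larger pulmonary veins, so a lung sample can hold them. Of the 28 probe sets (14 genes) of the cardiac list above the floor, 7 were lower and none was higher. Over all probe sets these shares were 0.994% and 0.59%. Of the cardiac list, 26 lay below the mean of both controls, while 58.0% of all probe sets lay above it. The list medians were -0.88 for late minus sham, -1.75 for late minus untreated and -0.82 for sham minus untreated. The summed intensity was 34068 in late lung, 58239 in sham lung and 101250 in untreated lung, with 44282 on the early and 71840 on the intermediate array. Thus the late array had the lowest sum of the 5, and the controls differed from each other by about as much as the late array differed from sham. Actc1, cardiac actin, missed the call at 5085 in late lung, 9361 in sham lung and 17201 in untreated lung. Atp2a2, the calcium pump of heart muscle that other cells also make, differed between probe sets: the brightest read 4967 in late lung, 4435 in sham lung and 4358 in untreated lung, the next 3109, 4088 and 5799. Myl3 and Ryr2 were under the floor on all 3 arrays.

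Ucp1, the uncoupling protein of brown fat, was under the floor in late lung, against 566 in sham lung and 537 in untreated lung, and the log2 differences reached at least -1.71 and -1.64. Its second probe set, at 224 in late lung, 448 in sham lung and 360 in untreated lung, was not called. Cox8b, a respiratory chain subunit of heart, skeletal muscle and brown fat, read 500 in late lung, 1310 in sham lung and 2634 in untreated lung. A second Cox8b probe set, at 671, 762 and 1077, was not called. Cfd, the fat cell protease adipsin, had 381, 943 and 1271. Ucp1, Cox8b and Cfd were the lower members among 16 probe sets (10 genes) of fat, with none higher. Over all probe sets 0.994% were lower and 0.59% higher. Of the 16, 14 lay below the mean of both controls (58.0% of all probe sets lay above it). The list medians were -0.34, -0.62 and -0.09 for late minus sham, late minus untreated and sham minus untreated. Fabp4, the fatty acid carrier of fat cells, was not called at 545 in late lung, 902 in sham lung and 1840 in untreated lung. Lpl, lipoprotein lipase, had 3833, 4344 and 4177 on its brightest probe set. How much muscle and fat each piece of lung carried was not measured, and its part in these differences was not tested.

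**Figure D3:**
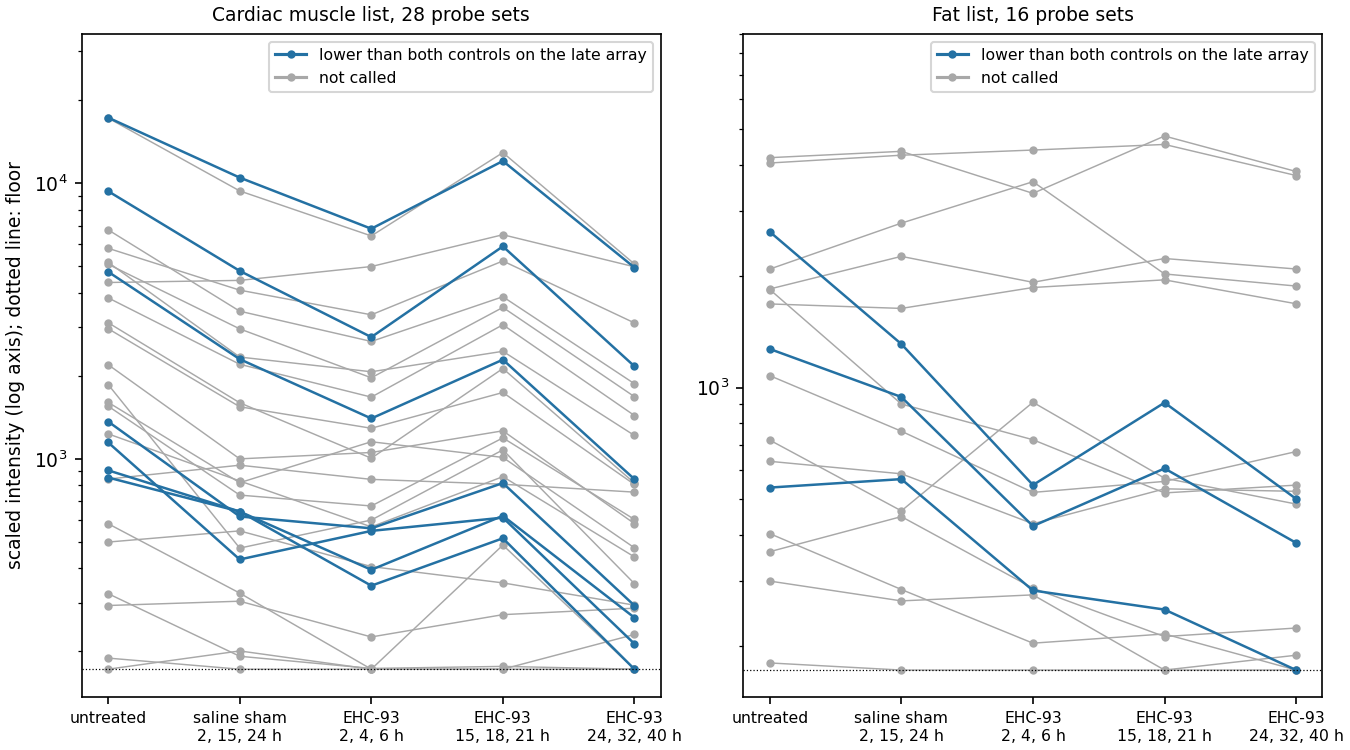
Scaled intensity (log axis) on each of the 5 arrays for every probe set of the cardiac muscle list (left) and the fat list (right) above the floor, with 1 line per probe set and the controls at the left of the time course. By values before the floor was applied, 24 of the 28 cardiac and 7 of the 16 fat probe sets are lowest in late lung. Lines drawn at the floor can be tied there. Called probe sets are blue.

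The other 12 lower probe sets of this class were outside those lists. S100a1, a calcium-binding protein abundant in heart, was under the floor in late lung, against 489 in sham lung and 547 in untreated lung. Its brighter probe sets differed less: one read 769 in late lung, 1077 in sham lung and 1509 in untreated lung. Pgam2, the muscle phosphoglycerate mutase, read 388 in late lung, 859 in sham lung and 1248 in untreated lung. Plec, the linker plectin, was under the floor in late lung, against 406 in sham lung and 421 in untreated lung, yet its bright probe set read 3743, 3836 and 3501. Slc8a2, a sodium and calcium exchanger, read 184, 394 and 422, and the Myc relative Bmyc read 215, 455 and 451. Adarb1, an RNA editing enzyme, was under the floor in late lung, against 350 in sham lung and 417 in untreated lung. An olfactory receptor probe set, Or1f20, of a type that can read related genes, read 177, 446 and 452. Where the lower genes of this class, cardiac and fat genes included, had another probe set above the floor (11 genes, 18 probe sets), 15 of the 18 lay below both controls. Their median was -0.78. Outside the cardiac and fat lists the differences from the mean of both controls were smaller. They were -0.73, -0.29 and -0.22 for S100a1, -0.15 and -0.27 for Bmyc, -0.05 for Or1f20 and 0.03 for Plec.

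The rc_AA class had few higher probe sets. Top2a, the topoisomerase that untangles DNA in dividing cells, read 1998 in late lung, against 824 in sham lung and 860 in untreated lung, 2.43-fold and 2.32-fold. Its early and intermediate values were 765 and 1420, below the late value, and its other probe set above the floor read 299 in late lung, 184 in sham lung and 217 in untreated lung. Ctsk, cathepsin K, a collagen-degrading protease of macrophages and osteoclasts, had 709 in late lung, against 216 in sham lung and 333 in untreated lung. The early and intermediate values of Ctsk were 255 and 393. Acat2, which joins acetyl-CoA units at the start of the sterol pathway, read 1115 in late lung, 401 in sham lung and 469 in untreated lung, and a second probe set of the same sequence tag read 1612, 563 and 1174. Uck2, a kinase of pyrimidine salvage, read 509 in late lung, with sham lung under the floor and 189 in untreated lung. Its early value was the highest of the 5 arrays. Hoga1, an aldolase of hydroxyproline breakdown, was at 545 in late lung, with sham lung under the floor and 236 in untreated lung, and the remaining 2 higher probe sets had no single symbol.

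The 39 lower rc_AA probe sets included 33 with a gene symbol, and 2 of these, Actn2 and Myl7, were on the cardiac list. Tmem69, a transmembrane protein, read 195 in late lung, against 928 in sham lung and 849 in untreated lung. On the early and intermediate arrays it had 745 and 910, so its late value was far below the other 4. Xrcc5, the Ku80 subunit of DNA end joining, had 447 in late lung, 1505 in sham lung and 1365 in untreated lung, with 1197 and 1346 on the early and intermediate arrays. Med6, a subunit of the Mediator complex, had 263 in late lung, 875 in sham lung and 1112 in untreated lung. Pde4b, the phosphodiesterase that ends cyclic AMP signals in leukocytes, read 1131 in late lung, 4275 in sham lung and 3147 in untreated lung. The cytokine Il33, an alarm signal stored in nuclei of lining cells, read 716 in late lung, 1947 in sham lung and 2839 in untreated lung. Prdx3, the mitochondrial peroxiredoxin, read 421, 1220 and 1512, and Ppm1b, a protein phosphatase, read 813, 2374 and 2613. Further members were the phosphatase Ptpn3 (log2 differences of -1.78 and -1.80 from sham and untreated), Vcf1 (-1.97 and -1.86), the arginyltransferase Ate1 (-1.51 and -1.82) and Acap1, a regulator of Arf GTPases (-1.45 and -1.40). Actn2, alpha-actinin of the heart sarcomere, was under the floor in late lung, against 644 in sham lung and 908 in untreated lung.

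Other probe sets of the same genes did not all follow. Of the named genes, 12 had another probe set above the floor, 16 in all, and 7 of these 16 lay below both controls, with a median of -0.25 and a range of -1.36 to 0.43. For Pde4b the others were at 0.22 and -0.26 from the mean of both controls on the log2 scale, for Ptpn3 at -0.02, for Epb41, a protein of the membrane skeleton, at 0.43, and for Psmd4, the ubiquitin receptor of the proteasome, at 0.36 and 0.20. Prdx3 had a second probe set of the same sequence tag at -0.70, and Stk38, a kinase, one at -0.81. For Il33, Tmem69, Xrcc5 and Med6 no other probe set was above the floor, so their lower values stand on 1 probe set on 1 array. Only 7 of the 16 were bright enough on both controls for a lower call.

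The lower rc_AA calls were not spread over the class. The names carry the number of the sequence tag. All 39 lay in 6 of 45 name series, the series being the leading digits of that number, 19 of 393 probe sets above the floor in rc_AA799 and rc_AA800 and 20 of 675 in rc_AA891 to rc_AA894, against 0 of 607 elsewhere in rc_AA. Both blocks, picked because they held the lower calls, had a long lower tail, of which those 39 calls are part. There, 18.0% of 1068 probe sets lay more than 0.5 below the mean of both controls on the log2 scale, against 3.29% elsewhere in rc_AA and 6.15% of the probe sets with other names. The medians differed little, at -0.04 in rc_AA799 and rc_AA800, -0.02 in rc_AA891 to rc_AA894 and 0.09 elsewhere, so the blocks differed in their tails more than in their centres. In the same blocks the share past -0.5 was 6.93% on the early and 3.09% on the intermediate array against the same controls. Between the controls, 14.0% of the block probe sets were more than 0.5 lower in sham lung than in untreated lung, against 11.1% of the probe sets with other names.

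**Figure D4:**
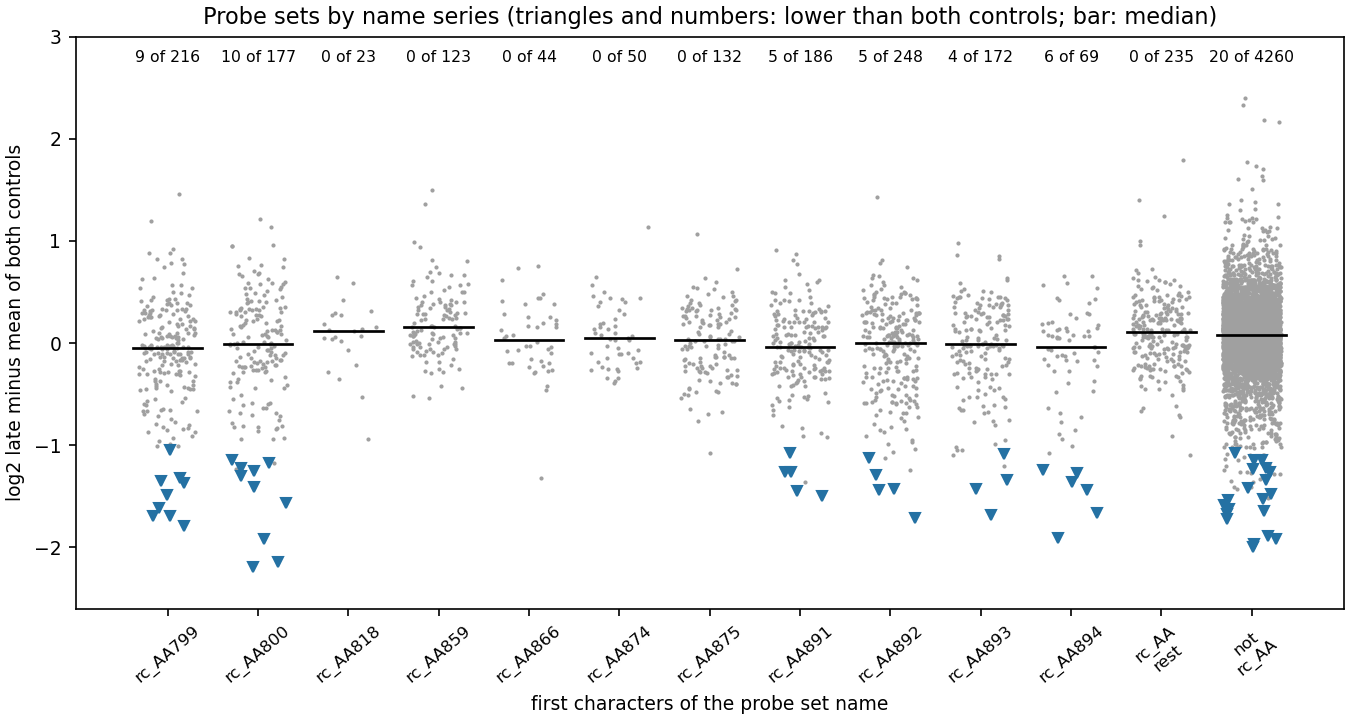
Log2 difference of the late array from the mean of both controls for each probe set above the floor, by the first digits of rc_AA names, with smaller rc_AA series joined and all other names at the right. Blue triangles are probe sets lower than both controls, counted at the top; they occur in rc_AA799, rc_AA800 and rc_AA891 to rc_AA894 and not in the other rc_AA series, and among other names 20 of 4260 were lower.

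Probe sets next to a lower one in name order were low as well. The 53 that adjoined a lower rc_AA probe set, were not called and came from another sequence tag had a median of -0.34, and 21 of them (39.6%) lay past -0.5. In the rest of the blocks 129 of 971 (13.3%) did, with a median of 0.00. On the early and intermediate arrays the same 53 had medians of -0.02 and 0.30. In addition, 4 pairs of lower probe sets stood directly next to each other. Where the probes of these tags lie on the array was not analysed here, and its part in the lower values was not tested. These blocks and neighbours were described after the values were seen. Without both blocks, which were picked to hold the lower calls, 0 rc_AA probe sets were lower and 5 higher. Among the other names 20 were lower and 28 higher.

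Beyond the called genes, 38 gene lists describe how the rest of the lung differed. The list of cytosolic ribosomal proteins, parts of the protein-making machine, had 63 probe sets. It also holds the kinase Rps6kb1, which is not such a protein, and a pseudogene entry, Rps4x-ps9. The list medians were 0.32 for late minus sham and 0.24 for late minus untreated. None of the 63 was called, and 54 lay above the mean of both controls, where 58.0% of all probe sets lay. Heat shock and unfolded protein response genes (49 probe sets) had 0.31 and 0.26 with none called. Genes of interferon response and antigen presentation (40 probe sets) had 0.26 and 0.22, with Cxcl10 as the 1 higher member (0.59% of all probe sets). Against the mean of both controls the ribosomal, heat shock and interferon lists had medians of 0.28, 0.29 and 0.22. The list of reference genes had 0.19 by the same measure, so these lists lay not far above it. The 6 probe sets of alveolar type 2 cells all lay above the mean of both controls, as did 58.0% of all probe sets, with medians of 0.29 and 0.42 and none called: Sftpa1, surfactant protein A, read 46214 in late lung, 37704 in sham lung and 32178 in untreated lung. For ribosomal proteins the median against the mean of both controls ranged from 0.04 to 0.31 over the ways of scaling the arrays, so its size depends on them, and for alveolar type 2 cells from 0.10 to 0.38.

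The acute phase and complement list had 2 of 39 probe sets higher (Orm1 and Nos2) and 1 lower (Cfd). Its medians were 0.13 and 0.18. Nos2, the inducible nitric oxide synthase, is neither an acute phase plasma protein nor a complement component. It is counted again under coagulation and vascular tone. Over all probe sets above the floor 0.59% were higher and 0.994% lower. The central complement component C3 was not called at 8473 in late lung, 4893 in sham lung and 4081 in untreated lung. Antioxidant and glutathione enzymes had none of 55 higher and 2 lower, both rc_AA probe sets of the blocks described above, Prdx3 and Gpx2, an epithelial glutathione peroxidase that read 1649 in late lung, 3429 in sham lung and 4033 in untreated lung. Without them that list had no call, and its bright member Gpx3, the secreted glutathione peroxidase, read 22335 in late lung, 22410 in sham lung and 22114 in untreated lung. Hmox1, haem oxygenase, the brightest metal handling gene, had 4583 in late lung, 4745 in sham lung and 1700 in untreated lung, and its early value was 15565. A second Hmox1 probe set read 937 in late lung, 798.9 in sham lung and 211 in untreated lung, so both stood above untreated lung and differed in sign against sham lung. Matrix genes had 2 of 57 higher, Mmp12 and Timp1, with medians of 0.18 for late minus sham and 0.10 for late minus untreated. Coagulation and vascular tone had Nos2 higher and Nppa lower of 39 (0.00 and -0.07). Glycolysis had Pgam2 lower of 33 (0.10 and 0.13), the mitochondrial respiratory chain Cox8b of 75 (0.12 and -0.08) and the proteasome and ubiquitin list Psmd4 of 65 (0.19 and 0.14).

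No probe set was called in the remaining lists, whose medians against sham and untreated are given in brackets. Among responses these were P450 and xenobiotic enzymes (0.13 and 0.09), metal handling (0.23 and 0.43), immediate early genes (0.04 and 0.08), glucocorticoid targets (-0.02 and 0.18) and the amino acid stress response (0.09 and 0.20). Among signalling lists they were JAK STAT (0.07 and 0.03), leukocyte adhesion and NF-kB (0.25 and 0.17), eicosanoid synthesis (-0.03 and 0.00) and TGF-beta and growth factors (0.00 and -0.07). Among cell types they were alveolar type 1 (0.03 and 0.02), club (-0.02 and -0.25), endothelial (-0.10 and -0.04), T and B (0.20 and -0.10), mast (0.04 and 0.29) and erythroid cells (-0.09 and 0.34), skeletal (-0.13 and -0.03) and smooth muscle (0.15 and 0.01), and the reference genes (0.23 and 0.19). Of skeletal muscle, Ckm, muscle creatine kinase, read 715 in late lung, 1017 in sham lung and 1688 in untreated lung. The nearly as bright Myh3, a myosin heavy chain, read 1018, 1076 and 1064. Of endothelial cells, the receptor Kdr read 1271, 1741 and 2219, while Ace, the brightest of that list, read 6563, 5207 and 4938. Ckm and Kdr had the lowest differences from the mean of both controls in their lists. In 14 of the 38 lists, the acute phase, antioxidant and alveolar type 1 lists among them, the median changed sign under some way of scaling.

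**Figure D5:**
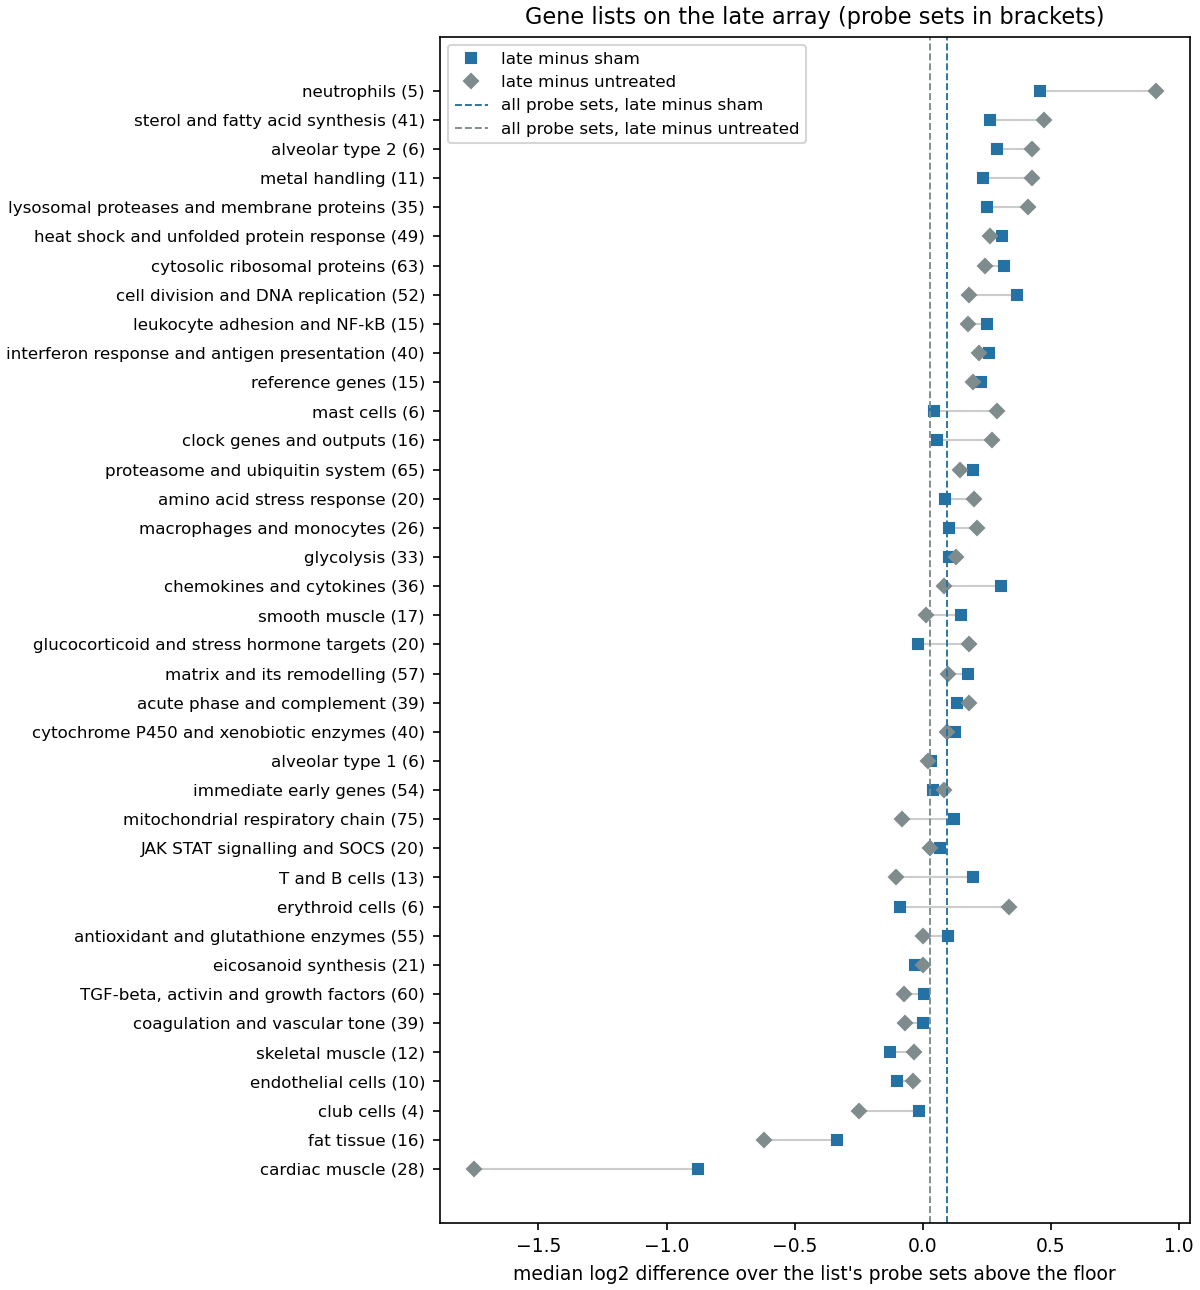
Median log2 difference of the late from the sham array (squares) and from the untreated array (diamonds) for each gene list, with its number of probe sets above the floor in brackets; dashed lines give the medians of all probe sets, 0.10 and 0.03. The cardiac muscle list (-0.88 and -1.75) and the fat list lie left of all others, and the neutrophil list (0.46 and 0.91, 5 probe sets) lies farthest right.

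The dust arrays differed in how many probe sets passed the same rule against the same controls. On the early array 3.3% of the probe sets above the floor were higher and 0.472% lower, on the intermediate array 0.856% and 0.352%, and in late lung 0.59% and 0.994%. For other names the higher share was 3.67% early, 0.936% intermediate and 0.657% late, and the lower share 0.54%, 0.398% and 0.469%. For rc_AA names the higher share was 2.39% early, 0.653% intermediate and 0.418% late, and the lower share 0.299%, 0.238% and 2.33%. The late array thus had the fewest higher and the most lower calls of the 3, and its larger lower share lay in the rc_AA names. The 3 comparisons share both control arrays. The dust arrays also differed in the 5′ shares of beta-actin and GAPDH given above, and the part of this in the counts was not tested.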

How the data were processed

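Pooled rat lung RNA, 1 pool per group by the labels, was hybridised to 5 Affymetrix arrays of 1 colour. The authors deposited a linear intensity for each of 8799 probe sets, and the sources used here do not state how they computed or scaled it. The 59 control probe sets were left out. Intensities were scaled to equal medians over the other 8740, raised to a floor of 172.53, which is their 40th percentile, and log2 transformed. Where a value lay under the floor, its fold is a bound. A probe set was called where the late array was at least 2-fold from both control arrays. Symbols were taken from GEO's annotation of the platform, which gave 1 symbol for 7006 probe sets, several for 308 and no entry for 1426; only the first kind was named. A RefSeq gene table of GRCr8 held 6985 of the identifiers and changed 0 symbols. Promoters came from RefSeq.

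The naming rule covered the 12 highest and 12 lowest called probe sets in each name class. Per list it covered up to 4 called ones or, with none called, the 2 brightest. Several lists without a call name fewer than those 2 or no gene. All other genes named, uncalled members of lists with calls included, were chosen after their values were seen. The members and the 38 lists were chosen with earlier results of these data known. Calling was tested on simulated data. Alternatives were other scalings, other floors and each control alone. The work used Python 3.11.15, numpy 2.4.6, pandas 2.3.3 and matplotlib 3.10.9.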

Additional observations from a re-analysis of the deposited data

How the results depend on the processing

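The counts below are given in the order rc_AA higher, rc_AA lower, other names higher and other names lower, and were 7, 39, 28 and 20 as reported. They were 29, 70, 146 and 112 with a floor at the 20th percentile, and 3, 22, 16 and 6 at the 60th. Against the sham array alone they were 37, 61, 86 and 84, and against the untreated array alone 22, 84, 83 and 79. The lower count of other names was 35 with values as deposited and 31 with scaling to the 75th percentile; with values as deposited the 4 counts were 6, 56, 22 and 35, so that 23.5% of all calls were higher, against 37.2% as reported, and 27.3% with scaling to the 75th percentile. Leaving values as deposited shifted the median of all probe sets by -0.10. Quantile normalization and scaling both name classes apart left all 4 counts within 1.5 times. Called probe sets on any list numbered 34, with 59 at the 20th and 20 at the 60th percentile floor. Chosen after seeing the data, leaving out rc_AA799, rc_AA800 and rc_AA891 to rc_AA894 left 0 lower rc_AA probe sets, and leaving out the cardiac and fat lists left 12 lower probe sets of other names. Lower rc_AA probe sets outside both blocks numbered 2 with values as deposited, 2 with the 75th percentile, 1 with quantile normalization and 17 with the 20th percentile floor. Of the 41 probe sets named by rule, 0 lost the 2-fold difference under any scaling or the lower floor and 22 did at the 60th percentile floor; none changed direction. These 41 were picked for large differences, so this says little about the other calls. Of the 35 higher calls, 28 were kept with values as deposited, 30 with the 75th percentile and 31 with quantile normalization. All 59 lower calls were kept under these 3, and 52 with both name classes scaled apart. Fewer values pass a higher floor by construction; the cause of the other moves was not tested. No paired analysis was possible because each group had 1 array. Intensities near the floor limit what can be called: 6 of 39 lower rc_AA and 6 of 20 other lower probe sets were under it on the late array.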
